A study of Rattus norvegicus with 12 samples.

Results

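The 9 genes described here form the adenosine axis of the chondrocyte. They are the 4 adenosine receptor genes Adora1, Adora2a, Adora2b and Adora3, the ectoenzyme genes Entpd1 and Nt5e that make adenosine outside the cell, the transporter gene Slc29a1, and Ada and Adk, which encode the enzymes that remove it. They were taken by symbol from the deposited table, which holds 28546 genes. RNA came from knee articular chondrocytes of Sprague Dawley rats in 4 groups of 3 libraries. In the Uninvolved group the knee was not injured. In the Saline, Lipo and Lipo-CGS groups the anterior cruciate ligament had been ruptured by a single load of tibial compression, and the knee was then injected with saline, with empty liposomes or with liposomes that carried CGS21680, a selective agonist of the A2A receptor (A2AR). Injections of 100 µl started 4 weeks after rupture and were repeated every 10 days for 8 weeks. By the methods of the study the rats were male, and their age is not given in the sources used here. Each library held cartilage combined from 3 rats, and RNA was taken from cells freed by pronase and collagenase digestion and then kept in culture. The experimental groups held 5 to 6 rats, fewer than 3 separate pools of 3 would take, so libraries of a group may share rats and may not be independent. Which libraries share rats, and whether the uninvolved knees belonged to the injured rats, is not given in the sources used here. The p-values therefore measure the spread between libraries only.

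Extracellular ATP is cut by CD39 (Entpd1) to AMP, and CD73 (Nt5e) takes the phosphate from AMP to leave adenosine. Adenosine then acts on its receptors, of which A1 and A3 couple to inhibitory G proteins and lower cAMP, while A2A and A2B couple to stimulatory G proteins and raise it. It is cleared when the equilibrative transporter ENT1 (Slc29a1) carries it across the membrane and adenosine kinase (Adk) turns it back to AMP or adenosine deaminase (Ada) turns it to inosine.

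All values are FPKM, read numbers scaled to transcript length and to library depth, so levels of different genes can be set side by side per unit of length. The total FPKM of a library ranged from 406630 to 440911 with liposomes and from 441989 to 544170 without them. The values were not scaled again for this difference, except in 1 alternative setting given below. In each library 10858 to 11109 genes reached 1 FPKM. The number of reads behind a value is unknown, and relative depth, estimated on 530 genes of low level, lay between 0.809 and 1.17. Chondrocyte genes were abundant in every library, with Col2a1, the main collagen of cartilage, at 4132 FPKM or more. Ptprc, the defining gene of leukocytes, stayed at or under 0.09 FPKM, and each of 5 endothelial genes (Cdh5, Kdr, Vwf, Tek and Emcn) at or under 0.11 FPKM. Saline replicate 3 stood apart from the other libraries, with the lowest Col2a1, Acan and Sox9 of all 12 and the highest Tyrobp, a myeloid gene, at 2.90 FPKM. Results that rest on this library are given with and without it.

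The promoters of 8 of the 9 genes were found in the RefSeq table of the GRCr8 assembly, a later assembly than the one to which the reads were aligned. The 250 bases before the start of Nt5e and Adk are shown because these members differed in opposite directions between groups with and without liposomes. Those of Adora1 are shown as an example of a receptor of low level. Capitals mark the GC box GGGCGG, a binding motif of SP-family factors, on either strand. Nt5e lies at chr8:98150675-98150924 on the plus strand, Adk at chr15:3295746-3295995 on the minus strand and Adora1 at chr13:48246832-48247081 on the minus strand, each written 5′ to 3′ along the gene.
Nt5e: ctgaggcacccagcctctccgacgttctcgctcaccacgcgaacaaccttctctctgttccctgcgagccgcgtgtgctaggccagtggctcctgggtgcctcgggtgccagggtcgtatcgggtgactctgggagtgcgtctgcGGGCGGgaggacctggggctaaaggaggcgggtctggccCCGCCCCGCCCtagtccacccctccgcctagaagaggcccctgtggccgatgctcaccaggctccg
Adk: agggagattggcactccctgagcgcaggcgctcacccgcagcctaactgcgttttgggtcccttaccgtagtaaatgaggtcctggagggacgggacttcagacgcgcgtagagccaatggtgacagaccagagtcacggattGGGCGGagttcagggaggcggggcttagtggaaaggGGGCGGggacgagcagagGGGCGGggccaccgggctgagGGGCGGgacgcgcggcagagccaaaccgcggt
Adora1: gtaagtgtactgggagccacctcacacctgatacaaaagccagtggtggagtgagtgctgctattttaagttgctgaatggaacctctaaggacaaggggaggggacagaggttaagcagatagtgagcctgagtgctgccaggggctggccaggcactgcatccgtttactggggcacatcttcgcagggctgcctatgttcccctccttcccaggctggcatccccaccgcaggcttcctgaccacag
The Nt5e promoter held 3 GC boxes, of which the last pair overlaps by 1 base, and the Adk promoter held 4. At least 1 GC box was found in 30.5% of 33469 rat promoters of this length, at least 3 in 7.41% and at least 4 in 3.67%. The promoters of Ada, Slc29a1 and Adora2b also held 3, 2 and 4 GC boxes. Adora2b, with a mean of 0.434 FPKM over the 12 libraries, thus held as many as Adk. The promoters of Adora1, Adora3 and Entpd1 had none. The cAMP response element TGACGTCA was found in none of the 8 promoters on either strand and in 1.59% of all promoters. The shorter motif TGACG, which lies within the full element, was also in none of the 8, against 18.2% of all. A match or its absence in this window describes the letters only.

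The message of the receptor that CGS21680 targets was the lowest of the 3 receptor messages above 0, and 26.7% of the 18964 genes above 0 had a mean at or below it. Adora2a stood at 0.10, 0.24 and 0.10 FPKM in the uninvolved knees and at 0.06, 0.08 and 0.10 FPKM in the Saline group. It stood at 0.06, 0.07 and 0.07 FPKM in the Lipo group and at 0.12, 0.05 and 0.05 FPKM in the Lipo-CGS group. The highest value came from a single uninvolved library and the other 11 lay at or under 0.12 FPKM. The Lipo libraries lay just below the uninvolved libraries and overlapped with Lipo-CGS and with Saline. At 2 decimals these values are a few rounding steps from 0, so a difference between injured groups was not detectable at this depth. A mean under 0.1 FPKM in all 4 groups was taken as near the detection floor. Adora2a met this in Saline, Lipo and Lipo-CGS and missed it in uninvolved knees, where the mean was 0.147 ± 0.0808 FPKM (SD, n = 3).

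Adora3, the A3 receptor, was listed at 0 in all 12 libraries and is the only receptor near the detection floor in every group. Entpd1, the ectoenzyme of the first step from ATP, was also listed at 0 in all 12. A 0 in this table may not mean that a message is absent. Hprt1, Hnrnpc, Rps19 and Rpl38, which cells in general use, were likewise listed at 0 in all 12 libraries, as were 5 of 74 ribosomal protein genes taken by symbol. No fold change is therefore given for Adora3 or Entpd1. Endothelial cells and leukocytes are known to carry CD39. The endothelial genes and Ptprc were at or near 0 as stated above. Of the 9 leukocyte genes in the table, however, 4 reached 1 FPKM in at least 3 libraries. Among them Cd14 stood at 46.6 ± 9.29 FPKM in uninvolved knees and 21.7 ± 2.18 FPKM in Lipo (SD, n = 3 each). Whether the 0 of Entpd1 is related to the cell types present was not tested.

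Adora2b, the A2B receptor of lower affinity for adenosine, had a mean of 0.434 FPKM over the 12 libraries, and of 0.363 FPKM without Saline replicate 3. It stood at 0.43, 0.56 and 0.24 FPKM in uninvolved knees, at 0.51, 0.31 and 1.22 FPKM in the Saline group, at 0.20, 0.30 and 0.32 FPKM in the Lipo group and at 0.35, 0.22 and 0.55 FPKM in the Lipo-CGS group. Saline replicate 3 alone passed 1 FPKM, and each pair of groups overlapped. Adora1, the A1 receptor, averaged 0.379 FPKM, and 0.398 FPKM without Saline replicate 3, so that the order of these means turns with that library. It stood at 0.84, 0.40 and 0.70 FPKM in Lipo-CGS, against 0.10, 0.43 and 0.35 FPKM in Lipo, 0.35, 0.48 and 0.17 FPKM in Saline and 0.19, 0.23 and 0.31 FPKM in uninvolved knees. The 3 Lipo-CGS libraries lay above the 3 uninvolved libraries, and they overlapped with Lipo and with Saline through Lipo-CGS replicate 2. In every library but Uninvolved replicate 2, Adora1 was above Adora2a, whereas the order of Adora1 and Adora2b differed between groups and their libraries overlapped in every group.

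None of the 4 receptors passed the filter of 1 FPKM in at least 3 libraries, and so none was tested in the comparisons below. In a limma fit without this filter, over 18964 genes, Adora1 was higher in Lipo-CGS than in uninvolved knees by 0.61 on the scale of log2(FPKM + 0.5) (standard error 0.20, adjusted p = 0.0445). This call held in 5 of 14 further fits with another pseudocount or with 1 library left out, with an adjusted p from 0.0256 to 0.150. It ended with both other pseudocounts and without any 1 of the uninvolved libraries, Saline replicate 1, Lipo replicate 3 or Lipo-CGS replicate 1 or 3. Against Lipo, the comparison that isolates the agonist, the differences in the fit without a filter were 0.54 for Adora1 (adjusted p = 0.286), 0.01 for Adora2a (adjusted p = 0.999) and 0.16 for Adora2b (adjusted p = 0.856). Adora2a in Lipo against uninvolved knees differed by -0.18 (adjusted p = 0.104). No receptor was called in any other comparison of this fit. On this scale a change at such low levels is understated.

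The other 4 members were expressed well above the filter in each library. Slc29a1 was the most abundant, at 131.93 to 229.07 FPKM and rank 365 of the 11373 genes tested by its mean. Adk (38.03 to 63.49 FPKM, rank 1560) and Nt5e (27.59 to 75.91 FPKM, rank 1618) followed, and Ada was lower (4.75 to 15.22 FPKM, rank 7171). This order, with Slc29a1 first and Ada last, held in every library. The order of Adk and Nt5e between them depended on the group. The plot of the members by library shows these levels.

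**Figure D1:**
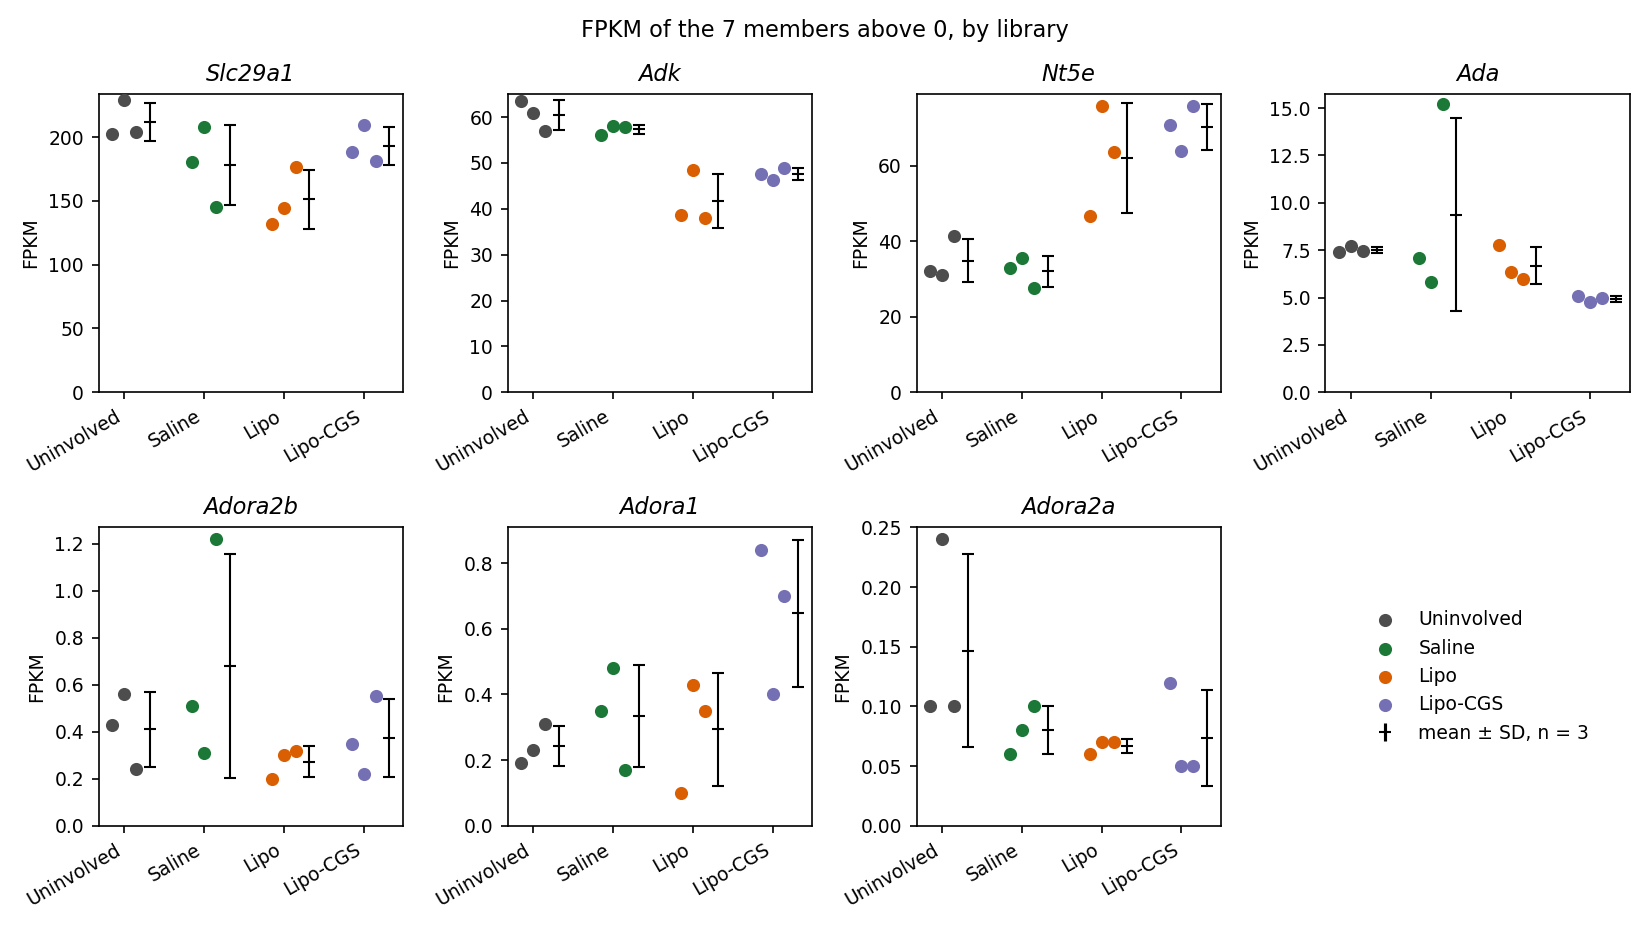
FPKM (vertical axes, each from 0) of the 7 members above 0 in any library, by group (horizontal axes). Each dot is 1 library and the black bars are the mean ± SD of 3 libraries. Nt5e lies between 46.80 and 75.91 FPKM in the 6 libraries with liposomes and between 27.59 and 41.44 FPKM in the other 6, while Adora2a does not exceed 0.24 FPKM.

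Nt5e was the member with the clearest difference. Its message stood at 32.04, 31.02 and 41.44 FPKM in uninvolved knees and at 32.97, 35.67 and 27.59 FPKM in the Saline group. In the Lipo group it stood at 46.80, 75.91 and 63.57 FPKM and in the Lipo-CGS group at 70.92, 63.80 and 75.86 FPKM. The lowest library with liposomes lay above the highest without, so these groups did not overlap, while Lipo and Lipo-CGS overlapped with each other, as did Saline and uninvolved knees. The means were 34.8 ± 5.74, 32.1 ± 4.11, 62.1 ± 14.6 and 70.2 ± 6.06 FPKM (SD, n = 3 each).

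A gene was called where its fold change exceeded 1.5 and its limma p, adjusted by Benjamini-Hochberg over all genes tested, lay under 0.05. Nt5e was called higher in each of the 4 comparisons of a liposome group with a group without liposomes. Its log2 fold change was 0.81 in Lipo against uninvolved knees (standard error 0.17, adjusted p = 0.00219) and 0.92 in Lipo against Saline (adjusted p = 0.00172), both groups of the latter being injured. It was 1.01 in Lipo-CGS against uninvolved knees (adjusted p = 0.000928) and 1.12 in Lipo-CGS against Saline (adjusted p = 0.000955). These 4 comparisons share libraries and are not independent of each other. Over both liposome groups against both others the fold change was 1.95, with a 95% interval from 1.63 to 2.35. In this last contrast the reference holds injured and uninjured knees, so that injury and liposomes are mixed in it. Each of these calls held in every alternative setting run. Saline against uninvolved knees gave a log2 fold change of -0.11 (95% interval from -0.49 to 0.26), whose upper bound lies below each of the values with liposomes.

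Markers of several cell types differed along with Nt5e. The sum of 10 chondrocyte genes was 9313 to 10446 FPKM in uninvolved knees, 5920 to 10802 in Saline, 9623 to 15445 in Lipo and 12039 to 17652 in Lipo-CGS. Against uninvolved knees, 4 of the 10 were called higher in Lipo and 1 lower (14.1% and 16.3% of all genes). In Lipo-CGS 4 were called higher and 0 lower (11.7% and 14%). Against Saline the counts were 4 and 1 in Lipo (10.6% and 12.3%) and 7 and 0 in Lipo-CGS (8.23% and 10.3%). Saline replicate 3 was lowest of all libraries in both this sum and Nt5e, and Lipo replicate 1 was lowest in both among the libraries with liposomes. Of 6 markers of fibroblasts and synovial lining, 4 were called higher in Lipo than in uninvolved knees and 2 in Lipo-CGS (14.1% and 11.7% of all genes). Their summed level was 350 to 440 FPKM in uninvolved knees, 393 to 1432 in Saline, 1913 to 2455 in Lipo and 785 to 794 in Lipo-CGS. Saline replicate 3 had a fibroblast sum of 1432 FPKM at the lowest Nt5e, and Lipo-CGS had a lower sum than Lipo at a Nt5e level that overlapped with it. Of 5 markers of smooth muscle and pericytes 2 were tested, and both were called higher in Lipo than in uninvolved knees (14.1% of all genes). The sums of all 5 were 211 to 271 FPKM in uninvolved knees and 261 to 517 in Saline. They were 472 to 622 in Lipo and 414 to 462 in Lipo-CGS. Saline replicate 1 had a sum of 517 FPKM, within the range of Lipo, at a Nt5e level of 32.97 FPKM. The 2 tested markers differed in this. Tagln, the larger part of the sum, reached 448.62 FPKM in Saline and stood at 304.54 to 403.45 in Lipo. Acta2 stood at 29.34 to 80.54 FPKM in Saline, below its 166.04 to 229.83 in Lipo. The part of these cells in the difference of Nt5e was not tested. In bulk libraries a change in the share of a cell type and a change of RNA per cell cannot be told apart.

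Adk, the kinase that returns adenosine to AMP, was lower where Nt5e was higher. It stood at 63.49, 60.98 and 57.02 FPKM in uninvolved knees, at 56.21, 58.09 and 57.82 FPKM in the Saline group, at 38.76, 48.55 and 38.03 FPKM in the Lipo group and at 47.62, 46.32 and 48.87 FPKM in the Lipo-CGS group. All 6 libraries with liposomes lay below all 6 without. The log2 fold change was -0.54 in Lipo against uninvolved knees (standard error 0.09, adjusted p = 0.000769 from limma) and -0.46 in Lipo against Saline (adjusted p = 0.00276). It was -0.34 in Lipo-CGS against uninvolved knees (adjusted p = 0.0114) and -0.27 in Lipo-CGS against Saline (adjusted p = 0.0425). In each case the adjusted p passed 0.05 while the fold change stayed under 1.5, so Adk was not called. Without Lipo replicate 2 the log2 fold change against uninvolved knees was -0.65 (adjusted p = 0.000446) and Adk was called lower. In Lipo-CGS against Saline the adjusted p reached up to 0.116 in other settings. Some leukocyte genes were lower along with Adk. Of the 4 tested, Cd14, Cd68 and Cd79a were called lower in Lipo than in uninvolved knees, where 16.3% of all genes were. Cd79a passed the filter through the groups without liposomes. It stood at 2.41 to 4.13 FPKM in uninvolved knees and at 0.34 to 0.56 FPKM in Lipo. Without Cd79a the calls of Cd14 and Cd68 remain. Fcer1g was not called and stood at 0.993 ± 0.440 FPKM in uninvolved knees and 1.36 ± 0.645 FPKM in Lipo (SD, n = 3 each). The sum of all 9 in the table was 45.0 to 71.5 FPKM in uninvolved knees, 47.4 to 50.9 in Saline, 23.9 to 26.6 in Lipo and 27.1 to 37.0 in Lipo-CGS, with Cd3e at 0 throughout. Most of it was Cd14, at 46.6 ± 9.29 FPKM in uninvolved knees and 21.7 ± 2.18 FPKM in Lipo. Fabp4, the 1 adipocyte gene tested, was also called lower in Lipo than in uninvolved knees (log2 fold change -1.62, adjusted p = 0.00125 from limma). Of 3 bone cell genes tested, Ibsp was called lower there (-1.02, adjusted p = 0.0259). Ctsk was called higher (0.82, adjusted p = 0.0432) and Acp5 was not called. The part of leukocytes, adipocytes and bone cells in the level of Adk was not tested.

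The ratio of Nt5e to Adk, both per unit of length, was 0.505, 0.509 and 0.727 in uninvolved knees and 0.587, 0.614 and 0.477 in Saline. It was 1.21, 1.56 and 1.67 in Lipo and 1.49, 1.38 and 1.55 in Lipo-CGS. Adk was thus the more abundant message in each library without liposomes and Nt5e in each library with them. The mean ratio was 1.48 ± 0.243 in Lipo and 1.47 ± 0.0886 in Lipo-CGS (SD, n = 3 each). The ratio was formed after the values were seen and is given as a description. The plot of Nt5e against Adk shows both sides of the line of equal FPKM.

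**Figure D2:**
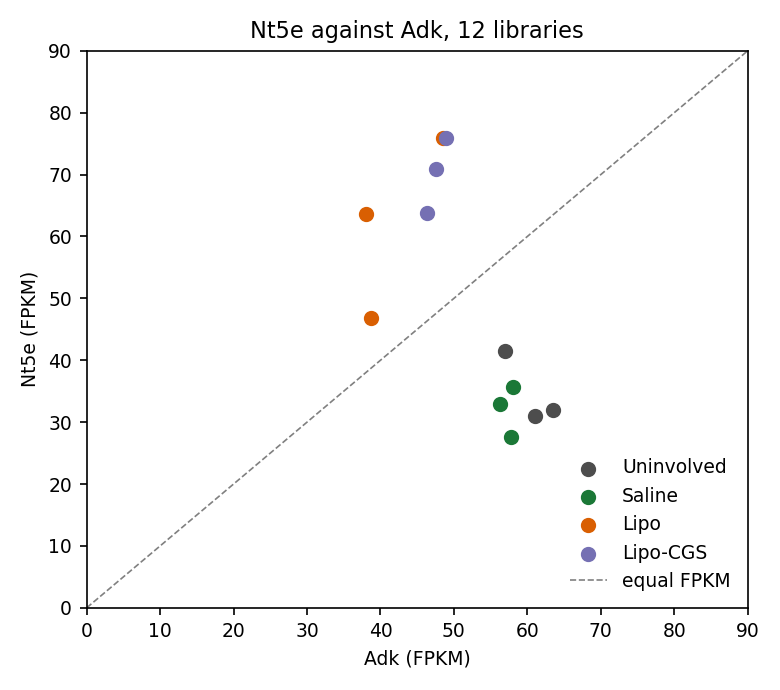
FPKM of Nt5e (vertical axis) against Adk (horizontal axis) in the 12 libraries, coloured by group, each point 1 library; the dashed line marks equal FPKM. The 6 Uninvolved and Saline libraries lie below the line and the 6 Lipo and Lipo-CGS libraries above it.

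Slc29a1, the transporter through which adenosine crosses the membrane in both directions, was lowest in the Lipo group. It stood at 202.32, 229.07 and 203.69 FPKM in uninvolved knees, at 180.62, 207.96 and 145.37 FPKM in Saline, at 131.93, 144.76 and 176.61 FPKM in Lipo and at 188.02, 209.76 and 181.15 FPKM in Lipo-CGS. The Lipo libraries lay below the uninvolved and the Lipo-CGS libraries and overlapped with Saline. In Lipo against uninvolved knees the log2 fold change was -0.49 (standard error 0.14, adjusted p = 0.0122 from limma), under the fold threshold. Without Lipo replicate 3 it was -0.61 (adjusted p = 0.00719) and Slc29a1 was called lower, and in other settings the adjusted p reached 0.0511. In Lipo-CGS against Lipo the log2 fold change was 0.36 with a 95% interval from 0.05 to 0.67, and it did not pass over all genes (adjusted p = 0.212).

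Ada, the deaminase, had its lowest values in Lipo-CGS. It stood at 5.09, 4.75 and 4.95 FPKM there, at 7.78, 6.33 and 5.96 FPKM in Lipo, at 7.10, 5.80 and 15.22 FPKM in Saline and at 7.38, 7.70 and 7.46 FPKM in uninvolved knees. The Lipo-CGS libraries lay below all other libraries. Ada was called lower in Lipo-CGS than in Saline by limma, by -0.74 on the log2 scale with a standard error of 0.25 and an adjusted p of 0.0370. This call rests on Saline replicate 3, the library with the value of 15.22 FPKM, and without it the log2 fold change was -0.35 (adjusted p = 0.0537). Without Lipo-CGS replicate 1, 2 or 3 the adjusted p was 0.0761, 0.0896 and 0.0818. It was 0.0752 without the filter and 0.0867 with only the groups compared, within a range from 0.00993 to 0.0896. Tyrobp, Fcer1g, Ptprc, Csf1r and Adgre1, all leukocyte genes, were at their highest in Saline replicate 3, although under 3 FPKM. The sum of the 9 leukocyte genes was 49.3 FPKM there, within the range of the other Saline libraries. Most of this sum was Cd14, which at 34.42 FPKM was at its lowest of the Saline group. The part of leukocytes in the level of Ada was not tested. Against uninvolved knees the log2 fold change of Ada was -0.56 in Lipo-CGS (95% interval from -1.12 to -0.01, adjusted p = 0.0856) and -0.16 in Lipo (adjusted p = 0.605). Over both liposome groups against both others it was -0.45 (adjusted p = 0.0438), under the fold threshold. Without Saline replicate 3 it was -0.26 (adjusted p = 0.0194), and without Saline replicate 2 it was -0.59 (adjusted p = 0.00807) and Ada was called lower. Over the other settings the adjusted p reached 0.0912.

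The agonist was isolated by Lipo-CGS against Lipo. There 0 of the 4 tested members were called by limma, where 0.167% of all tested genes were called. At an unadjusted p under 0.05, 1 member (Slc29a1) passed, where 18.4% of all genes did. In Slc29a1 and Ada the libraries of both groups did not overlap, as in 27.9% of all genes. The 95% interval of the fold change of Lipo-CGS over Lipo ran from 0.886 to 1.49 for Nt5e, from 0.992 to 1.32 for Adk, from 1.03 to 1.59 for Slc29a1 and from 0.516 to 1.12 for Ada.

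The count of members is given beside the share of all tested genes in each of the other comparisons. In Lipo against uninvolved knees 1 member was called higher and 0 lower, where 14.1% and 16.3% of all genes were. By the adjusted p alone 2 were lower (28.9% of all genes), and 3 did not overlap (58.7%). In Lipo-CGS against uninvolved knees 1 was called higher and 0 lower (11.7% and 14% of all genes), 1 was lower by the adjusted p alone (26.1%) and 3 did not overlap (59.4%). Nothing particular to the list is read from these counts.

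In Lipo against Saline 1 was called higher and 0 lower (10.6% and 12.3%), 1 was lower by the adjusted p alone (24.5%) and 2 did not overlap (55.4%). In Lipo-CGS against Saline 1 was called higher and 1 lower (8.23% and 10.3%), 2 were lower by the adjusted p alone (21.6%) and 3 did not overlap (58%). With liposomes against without, 1 was called higher and 0 lower (10.9% and 13.4%), 2 were lower by the adjusted p alone (32.2%) and 2 did not overlap (34.8%). Saline against uninvolved knees, in which injury and repeated injection of saline go together, gave 0 members called by limma (0% of all genes), 0 with an unadjusted p under 0.05 (4.98%) and 0 without overlap (8.48%). The median log2 fold change of the 4 tested members was -0.33 in Lipo against uninvolved knees and 0.20 in Lipo-CGS against Lipo, beside -0.01 and 0.00 over all genes.

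**Figure D3:**
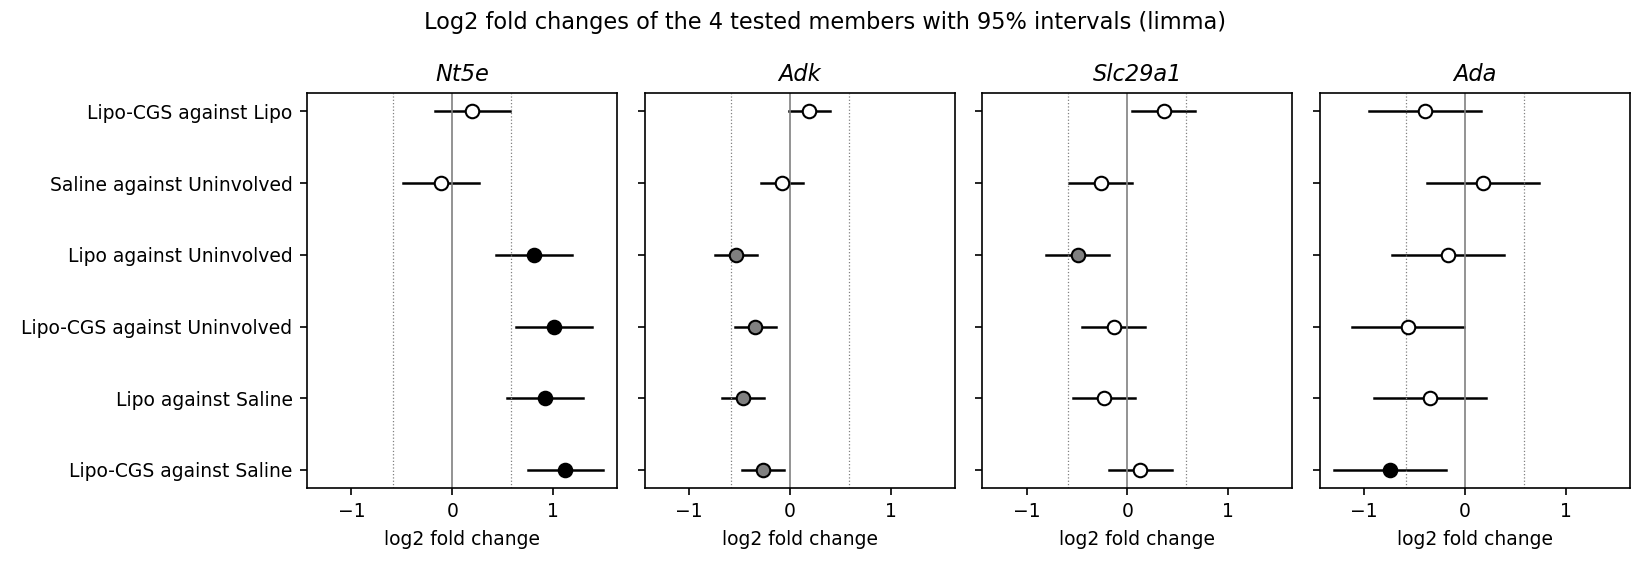
Log2 fold changes (horizontal axes) of the 4 tested members in 6 comparisons of groups (rows), with 95% intervals from limma. Black points were called, grey points passed the adjusted p alone and white points did not pass; dotted lines mark the fold change of 1.5. Nt5e is called in the 4 comparisons of a liposome group with a group without liposomes and in neither of the other rows.

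The enzymes, transporters and receptors around these members were counted from lists that hold the members too. Of 18 genes listed under extracellular nucleotide hydrolysis, which include enzymes inside the cell, 10 were tested. In Lipo against uninvolved knees 3 were called higher and 1 lower, where 14.1% and 16.3% of all genes were. Of these, Entpd7 and Enpp4 passed the filter through 1 of the compared groups while every library of the other lay under 1 FPKM, and without both 2 of 8 were called higher and 0 lower. Entpd7, an intracellular nucleotidase, stood at 0.477 ± 0.202 FPKM in uninvolved knees and 1.46 ± 0.232 FPKM in Lipo (SD, n = 3 each), and in the fit without a filter it was also called (adjusted p = 0.00169 from limma). The 2 others called higher were Nt5e and Enpp2. Enpp2 encodes autotaxin, which makes lysophosphatidic acid, and its log2 fold change was 1.72 (adjusted p = 0.0109). The Lipo libraries spread from 83.80 to 362.78 FPKM, and the fold change of 3.29 became 5.27 when Lipo replicate 1 was left out (adjusted p = 0.000362). It became 2.54 when Lipo replicate 3 was left out, and the call ended (adjusted p = 0.0519). Enpp4, a membrane-bound phosphodiesterase, differed by -0.60 on the log2 scale (adjusted p = 0.00763, and 0.00981 without a filter), which fell under the fold threshold in 4 of 20 settings. In Lipo against Saline 3 were called higher (Nt5e, Entpd7 and Enpp2; 10.6% of all genes), of which Enpp2 lost its call in 11 of 21 settings, with an adjusted p up to 0.170, and Entpd7 in 1 of 20, with a pseudocount of 1. Entpd7 and Enpp4 again passed the filter through 1 of the compared groups, and without both 2 of 8 were called higher. Enpp1, which cuts ATP directly to AMP and pyrophosphate, was the most abundant gene of the list in uninvolved knees at 141 ± 6.04 FPKM, and stood at 116 ± 22.4 in Saline, 128 ± 3.74 in Lipo and 125 ± 3.59 in Lipo-CGS without passing. Enpp1 and Entpd4 are named after their values were seen. Entpd4, a nucleotidase of the inner membranes, stood at 7.35 ± 0.533 FPKM in uninvolved knees and 12.4 ± 0.762 FPKM in Lipo-CGS.

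Of 7 nucleoside transporters 2 were tested. Besides Slc29a1 this was Slc29a3, which encodes the lysosomal transporter ENT3 and was called higher in Lipo than in Saline (7.65 ± 1.03 and 4.88 ± 0.175 FPKM, log2 fold change 0.59, adjusted p = 0.00364). The call ended in 3 of 21 settings, where the fold change dropped under the threshold. The other 5 stayed under the filter, among them Slc29a2, which was listed at 0.

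Of 26 genes of adenosine removal and purine salvage 21 were tested, and in Lipo against uninvolved knees 3 were called higher and 2 lower, beside 14.1% and 16.3% of all genes. Nt5c3b, a cytosolic nucleotidase, fell from 32.1 ± 2.52 to 17.4 ± 2.35 FPKM (log2 fold change -0.87, adjusted p = 0.000147) and stood at 16.7 ± 0.791 FPKM in Lipo-CGS. Pnp, the phosphorylase that splits inosine, fell from 596 ± 73.1 to 371 ± 72.9 FPKM (log2 fold change -0.70, adjusted p = 0.00492), under the fold threshold without Lipo replicate 1. In Lipo-CGS it stood at 601 ± 71.8 FPKM, and the 3 Lipo-CGS libraries lay above the 3 Lipo libraries without passing over all genes (log2 fold change 0.71, adjusted p = 0.0835). Xdh, which oxidizes hypoxanthine and xanthine to uric acid, rose in Lipo (log2 fold change 0.92, adjusted p = 0.00537), with libraries at 23.80 to 35.29 FPKM in uninvolved knees, 41.29 to 69.48 in Lipo and 64.17 to 93.14 in Lipo-CGS. Ahcyl1, a relative of the hydrolase that forms adenosine from S-adenosylhomocysteine, rose from 63.9 ± 10.6 to 116 ± 16.6 FPKM (log2 fold change 0.86, adjusted p = 0.000556). In Lipo against Saline 1 was called higher (Ahcyl1) and 1 lower (Nt5c3b), beside 10.6% and 12.3% of all genes. In Lipo-CGS against Lipo 0 genes of these 3 lists were called by limma, where 0.167% of all genes were.

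Of 13 genes of de novo purine synthesis 12 were in the table and 11 were tested. None was called in Lipo against uninvolved knees by limma, where 14.1% of all genes were called higher and 16.3% lower. At an adjusted p under 0.05 alone 1 was higher and 4 were lower. Of the 11373 genes tested, 6297 passed this threshold in either direction, and 3287 of all genes (28.9%) were lower. Their median log2 fold change was -0.20, beside -0.01 over all genes. The tested genes of the lists are plotted together for Lipo against uninvolved knees and for Lipo-CGS against Lipo.

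**Figure D4:**
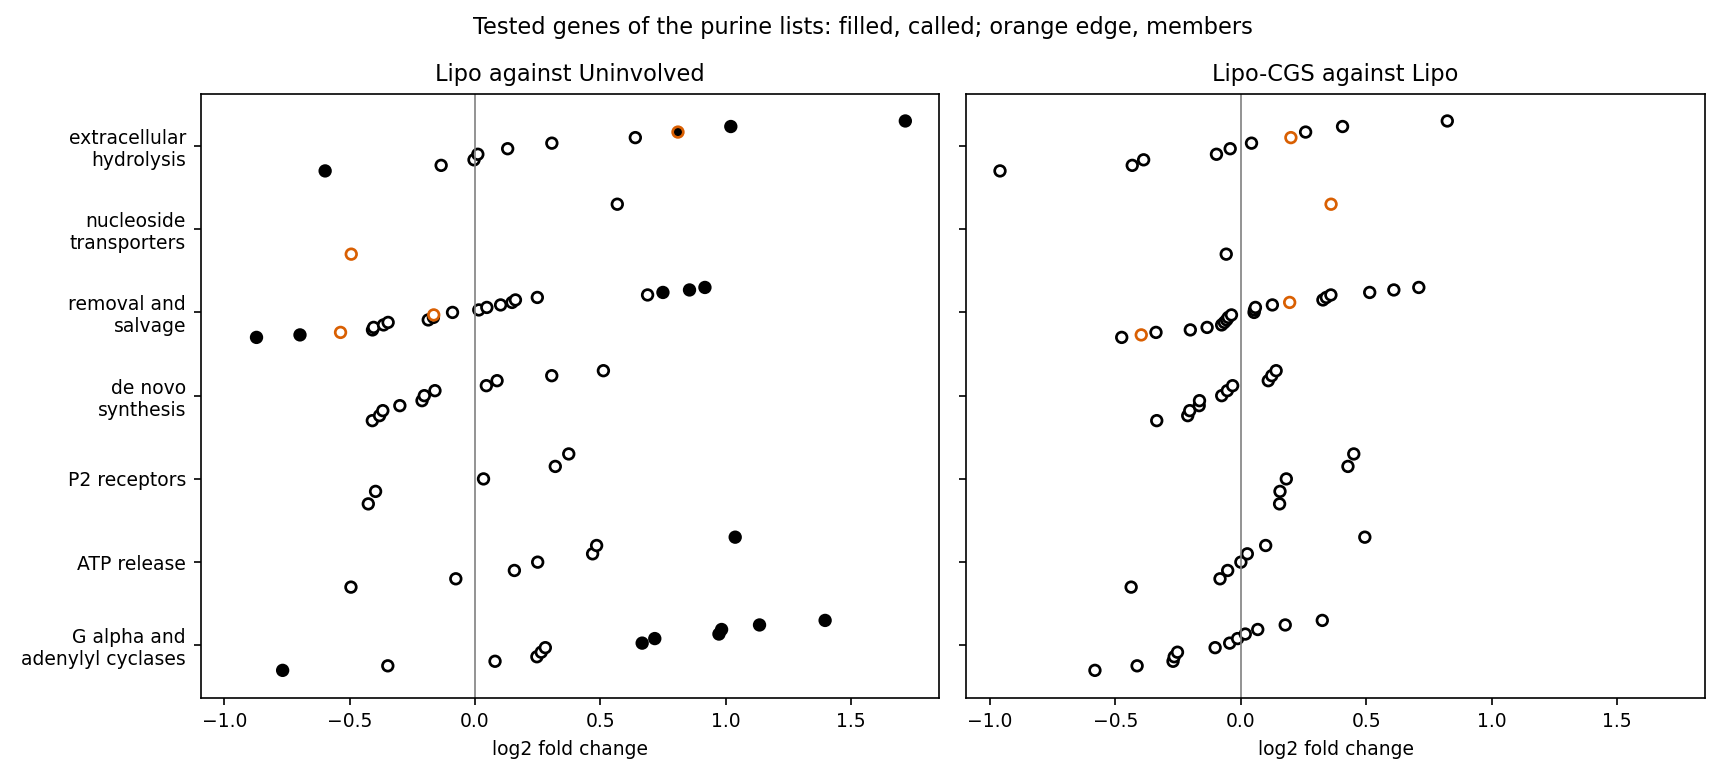
Log2 fold changes (horizontal axes, limma) of the tested genes of 7 purine-related lists (rows) in Lipo against Uninvolved (left) and Lipo-CGS against Lipo (right), each point 1 gene and spread vertically within a list only for view. Filled points were called, and an orange edge marks the 4 tested members. Calls are seen on the left in 4 of the lists and none on the right.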

How the data were processed

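The 12 libraries (3 per group) were profiled by RNA-seq of chondrocytes. By the methods of the study, 50 bp single-end reads were mapped by STAR to Rnor_6.0, counted with featureCounts and normalized with DESeq2, while the submitters' processing notes name HTSeq. The authors deposited a table of FPKM values rounded to 2 decimals, and the step from counts to FPKM is not given in the sources used here. No read counts were used, so no counting interval can be given.

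Columns were assigned to samples by name. The log2(FPKM + 0.5) values were not scaled again. The 11373 genes that reached 1 FPKM in 3 or more libraries were fitted as means of 4 groups in 1 model with limma 3.58.1 in R 4.3.3, with a trend on mean expression, 8 residual and 3.65 prior degrees of freedom, and Benjamini-Hochberg adjustment over these genes. The call needed a fold change over 1.5 beside an adjusted p under 0.05, as in the study's methods. The procedure was tested on simulated data with independent libraries. That test does not cover libraries that share rats or changes in genes of low level. Promoters are from RefSeq (GRCr8). Figures were drawn with matplotlib 3.10.9.

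The members and lists were chosen with earlier results of these data known. Named beside the 9 members are, per list, up to 4 genes with the smallest adjusted p among those called in Lipo-CGS against Lipo, Lipo against uninvolved knees and Lipo against Saline, each taken on its own, the 3 genes nearest to each called member, and other-cell markers above 1 FPKM where a result turns on them, with Ptprc and Col2a1 in any case. Markers at or near 0 (Cd3e and the endothelial genes), Gnal, Adcy4, Adcy5, Adcy8 and the genes listed at 0 were named after their values were seen, as was the check of genes that passed the filter through 1 compared group. Of the list genes Pfas, Itgam, Mcpt1 and Pecam1 were not found by symbol. Alternatives were a filter of 5 FPKM or none, pseudocounts of 0.1 and 1, median-of-ratios recentering, robust eBayes, only the groups compared, a block for the replicate number, no fold threshold and leaving out each library. Fits of the receptors without a filter under other settings were added after the values were seen.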

Additional observations from a re-analysis of the deposited data

How the results depend on the processing

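No member changed the sign of a called value in any setting. With 1 library left out, the members called ranged from 0 to 0 in Lipo-CGS against Lipo and in Saline against uninvolved knees, from 1 to 1 in Lipo-CGS against uninvolved knees and in Lipo against Saline, from 1 to 2 in Lipo against uninvolved knees and with against without liposomes, and from 1 to 2 in Lipo-CGS against Saline. Without the fold threshold, 3 members passed in Lipo against uninvolved knees, 2 in Lipo-CGS against uninvolved knees, 2 in Lipo against Saline and 3 with against without liposomes, since Adk, Slc29a1 or Ada then count. In Lipo-CGS against Saline Adk then passed beside Nt5e and Ada (adjusted p = 0.0425 from limma). Without a filter, 2 were called in Lipo-CGS against uninvolved knees, since Adora1 is then tested, and 1 in Lipo-CGS against Saline. With only the groups compared, 1 was called in Lipo-CGS against Saline; the cause was not tested.

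With the replicate number as a block, 0, 1, 1, 0, 1, 2 and 1 members were called in the 7 comparisons, as without it. The numbers do not pair the libraries: 2 of 18 same-numbered pairs had a correlation of their deviations over 0.1 (median -0.01), and 2 of 12 libraries correlated best with their own number.

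Over all genes, the 19 calls of Lipo-CGS against Lipo became 9 with the block and 42 with only the groups compared, and ranged from 3 without Lipo replicate 1 to 115 without Uninvolved replicate 3. The 0 calls of Saline against uninvolved knees became 37 without Uninvolved replicate 3. Without the fold threshold, 6297 genes in place of 3464 passed in Lipo against uninvolved knees, 5653 in place of 2926 in Lipo-CGS against uninvolved knees, 5236 in place of 2609 in Lipo against Saline, 4493 in place of 2110 in Lipo-CGS against Saline and 7170 in place of 2764 with against without liposomes. Depth is unknown, and Adora2a lies within a few rounding steps of 0.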

Other observations

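Adenosine receptors signal through G proteins and adenylyl cyclases. Of 16 G alpha subunits and adenylyl cyclases 12 were tested, and in Lipo against uninvolved knees 6 were called higher and 1 lower, where 14.1% and 16.3% of all genes were. The other 4 (Gnal, Adcy4, Adcy5 and Adcy8) stayed at or under 0.58 FPKM. Gnas, the stimulatory subunit, was the one called lower and is named after its values were seen. Adcy7, an adenylyl cyclase, rose from 6.85 ± 1.37 to 13.9 ± 0.840 FPKM (SD, n = 3 each; log2 fold change 0.98, adjusted p = 0.000138 from limma) and stood at 13.7 ± 0.200 FPKM in Lipo-CGS. For Adcy9 the log2 difference was 0.97 (adjusted p = 0.000914) and for Adcy6 it was 0.67 (adjusted p = 0.000425). Adcy1, with libraries between 0.11 and 0.35 FPKM in uninvolved knees and between 1.07 and 1.98 FPKM in Lipo, passed the filter through the liposome groups. Without it 5 of 11 were called higher and 1 lower. In the fit without a filter Adcy1 was also called (adjusted p = 0.000572). In Lipo against Saline 4 were called higher (10.6% of all genes), Adcy1, Adcy7, Adcy9 and Gnaq, the last at a log2 fold change of 0.92 (adjusted p = 0.00451). Every Saline library of Adcy1 also lay under 1 FPKM, and without Adcy1 3 of 11 were called higher there. None of the 12 was called in Lipo-CGS against Lipo by limma, where 0.167% of all genes were.

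Of 9 genes of ATP release 7 were tested. Gja1, which encodes connexin 43, was the one called, higher in Lipo than in uninvolved knees (14.1% of all genes) and in Saline (10.6%). It stood at 168 ± 6.45 FPKM in uninvolved knees, 198 ± 64.9 in Saline, 348 ± 62.3 in Lipo and 336 ± 61.5 in Lipo-CGS. Of 14 P2 nucleotide receptors 5 were tested and 0 were called by limma in Lipo against uninvolved knees. There 14.1% of all genes were called higher and 16.3% lower. At the adjusted p alone 1 was lower, where 28.9% of all genes were.

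The genes with values most like those of Nt5e over the 12 libraries, by the root mean square difference of centred log2 values, were Fkbp9, a chaperone of the endoplasmic reticulum (0.0526), Scarb2, a lysosomal membrane protein (0.0790), and App, the amyloid precursor protein (0.0932). Those most like Ada were Slc48a1, a heme transporter (0.146), Osr2, a transcription factor of skeletal development (0.153), and Stk17b, a kinase (0.167). For comparison, the standard deviation of the log2 values was 0.55 for Nt5e and 0.42 for Ada.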
